A study of Mus musculus with 10 samples.

Results

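The 36 genes described here belong to the lysosome and to macroautophagy, and leave out the cathepsin proteases. They were chosen by name, with earlier results of these data known, as the rows of a deposited hippocampal expression table that carry these gene symbols. All 36 were found among the 21956 genes of the table, and 36 of 36 passed the filter on low counts. The 10 libraries came from hippocampal tissue of mice of genotype hMapt, aged 6 months. For the circTau6 group, 5 libraries, mice had received an adeno-associated virus carrying circTau6, a circular RNA of the tau gene, and the design text places sampling at 80 days. The control group, 5 libraries, came from control-injected mice of that genotype and age. What the control injection contained and which promoter drives circTau6 are not known from the labels. Both groups carry the human tau gene, and no mouse without it was compared.

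Lysosomes are acidic organelles whose enzymes break down proteins, lipids and sugar chains that arrive by endocytosis or by autophagy. In autophagy a membrane grows around cytoplasmic cargo under the control of ULK and beclin complexes. ATG proteins couple small ATG8 proteins to that membrane, cargo receptors tie ubiquitin-marked material to it, and the closed vesicle fuses with a lysosome. Long-lived neurons depend on this route to clear aggregation-prone proteins, tau among them, and loss of single lysosomal genes causes neurodegenerative storage diseases. The transcription factors TFEB and TFE3 switch many of these genes on together through DNA sites built around the letters CACGTG.

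The genes were chosen by name and not by a search for that sequence. Many are known to be switched on through it, so the list is not independent of it. The sequence was searched in the RefSeq promoters (GRCm38.p6) from 250 bases before to 50 bases after each start. An entry was found for 30 members and not for Asah1, Atg12, Atg16l1, Becn1, Map1lc3a and Npc1. The letters CACGTG, which read the same on both strands, occurred in 8 of the 30 (Atg5, Atg7, Gaa, Gla, Glb1, Lamp1, Mcoln1 and Naglu), a share of 26.7%. They occurred in 11.3% of the 11183 tested genes with an entry and in 7.15% of all 32851 promoters. The longer TCACGTGA, which contains CACGTG and is also its own reverse complement, was in Gla and Mcoln1, 6.67% of members against 2.05% of tested genes. The members with the most matches were Lamp1, with 4 copies of CACGTG, and Gla and Mcoln1, with 2 each. Their upstream stretches of 120 bases are shown 5′ to 3′ on the gene's strand with CACGTG in capitals, and each ends where the more upstream of the RefSeq and GENCODE starts begins. The Lamp1 stretch lies at chr8:13159041-13159160 on the + strand, that of Gla at chrX:134601126-134601245 on the - strand and that of Mcoln1 at chr8:3500337-3500456 on the + strand; the second Mcoln1 match lies closer to the RefSeq start and is not shown.
Lamp1: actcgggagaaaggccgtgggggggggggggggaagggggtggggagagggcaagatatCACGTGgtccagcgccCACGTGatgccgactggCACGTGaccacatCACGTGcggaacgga
Gla: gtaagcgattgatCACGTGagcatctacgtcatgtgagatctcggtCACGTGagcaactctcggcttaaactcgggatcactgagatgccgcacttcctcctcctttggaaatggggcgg
Mcoln1: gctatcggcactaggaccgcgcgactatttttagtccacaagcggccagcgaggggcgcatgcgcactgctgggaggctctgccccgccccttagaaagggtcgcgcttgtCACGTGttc
In Lamp1 the 4 copies are packed close together near the start, whereas in Gla both lie toward the far end of the stretch. A match describes these letters only and is not a measured binding site. The 8 genes with CACGTG had a median log2 fold change (circTau6 over control) of 0.018, and 5 of 8 were positive. In the 22 without it the median was 0.026, and 14 were positive.

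Total counts were 14762952 to 17647138 per library, and the members had 76 to 25677 counts in a library. 3 libraries stood apart before any gene of the list was considered. In circTau6 replicate 3 the deviation of a gene from its mean over libraries followed the GC content of its transcript (Spearman's rho across 14371 genes, which are not independent, 0.41, against −0.11 to 0.003 in the other libraries). Control replicate 2 and circTau6 replicate 5 were poor in choroid plexus RNA: 10 markers of that tissue summed to 81.8 and 73.4 CPM (counts scaled to a common library size), against 1964 to 5667 CPM in the others. Markers of neurons, astrocytes and oligodendrocytes were present in every library, with 10 of 10, 10 of 10 and 9 of 9 past the filter. In bulk tissue, fewer cells of a type and less RNA per cell cannot be told apart.

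None of the 36 lysosome and autophagy genes passed the edgeR test, and 30 of 36 had a log2 fold change under 0.1 in size. The lowest adjusted p among them was 0.981, where 0 of 14396 genes tested passed (0%). At an unadjusted edgeR p under 0.05 there were 2 members, Atg16l1 and Grn, both with higher values, beside 4.42% of all genes tested. For higher values alone the share of all genes was 2.58%, and for lower values, where there were 0 members, 1.85%. This is near the background. DESeq2 also called 0 members, and called 14 of the 18275 genes it tested (0.0766%); at an unadjusted p under 0.05 it had the same 2 members, beside 4.08% of all genes. Over the members the median log2 fold change was 0.026, beside −0.00024 over all genes, and 24 of 36 were positive, beside 49.9% of all genes. Without circTau6 replicate 3 the median was 0.0038 and 18 of 36 were positive. In CPM the groups stood clear of each other in 0 of 36 members, and in TPM those of Asah1 did. By CPM every circTau6 library was above every control in 0.472% of all genes tested, and every one below in 0.368%. These shares were not computed in TPM.

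The measurements were precise enough to bound the differences. For 32 of 36 members the whole 95% interval of the difference lay within 1.3-fold in either direction, as it did for 67.5% of all genes tested. The other members were Tfeb, Naglu, Lipa and Grn. The median standard error of the log2 fold change was 0.055 for members and 0.088 for all genes. The members were also more abundant than most genes, with a median of 49.4 TPM (abundance per transcript length within a library) in control libraries, against 20.6 TPM over all genes tested. The coefficient of variation between control libraries had a median of 4.61% for members and 8.61% for all genes, and between circTau6 libraries 5.95% and 9.87%.

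**Figure D1:**
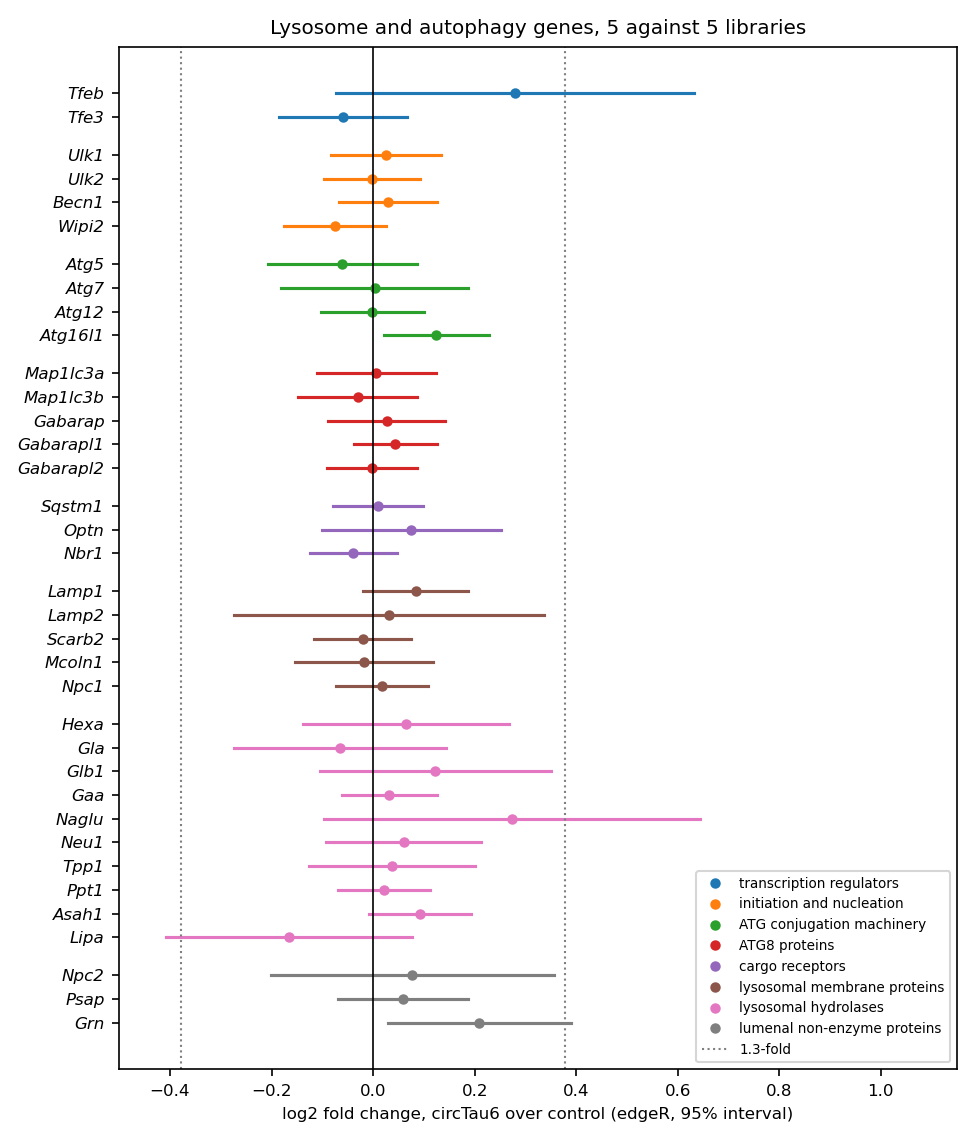
Log2 fold change of each of the 36 genes (points, circTau6 over control, edgeR) with its 95% interval (lines), coloured by role; dotted lines mark 1.3-fold. The intervals of Atg16l1 and Grn lie above 0, and those of Tfeb, Naglu, Lipa and Grn reach past a dotted line.

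The 2 transcription factors of the list differed in level and in precision. Tfe3 was the more abundant, with 25.8 TPM ± 2.13 (SD, n = 5) in control libraries, against 6.37 TPM ± 1.27 (SD, n = 5) for Tfeb. Tfeb had 4.98, 4.87, 6.60, 5.56 and 6.01 CPM in control replicates 1 to 5, and 5.89, 6.26, 9.93, 6.24 and 5.65 CPM in circTau6 replicates 1 to 5. Only circTau6 replicate 3 lay above every control library, and the other 4 lay within the control range. The log2 fold change was 0.28 ± 0.17 (SE), and 0.10 without circTau6 replicate 3. That library is the one whose values followed GC content, and the longest Tfeb transcript holds 63.2% GC, against a median of 49.7% over tested genes; the part of GC content in the Tfeb value was not tested. Tfe3 had 29.5, 28.3, 29.3, 29.3 and 30.4 CPM in control and 30.0, 28.3, 27.2, 29.1 and 26.1 CPM in circTau6 libraries. The groups overlapped, with a log2 fold change of −0.06 ± 0.06 (SE).

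Genes that start the autophagosome kept to a narrow range. The kinases Ulk1 and Ulk2, the phosphoinositide-binding Wipi2 and Becn1, the beclin of the lipid kinase complex, had log2 fold changes from −0.08 to 0.03, with 0 of 4 called. Becn1, the highest of them at 143 TPM, had 95.5, 90.7, 96.6, 91.9 and 90.6 CPM in control and 91.8, 89.1, 99.3, 98.0 and 96.7 CPM in circTau6 libraries. Its difference was 0.029 ± 0.046 (SE) in counts, and its sign turned in TPM, with group means of 143 and 137 TPM. Wipi2 had 106, 102, 109, 97.3 and 104 CPM in control and 93.1, 97.7, 102, 95.3 and 104 CPM in circTau6 libraries. It was thus below every control in 2 of 5 circTau6 libraries, at −0.08 ± 0.05 (SE).

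Among the 4 conjugation genes, Atg16l1 had the lowest p of the whole list. ATG16L1 brings the ATG12-ATG5 conjugate to the membrane, where ATG8 proteins are attached. Atg16l1 had 48.8, 44.8, 46.7, 44.3 and 45.9 CPM in control replicates 1 to 5, and 51.9, 51.6, 49.8, 48.2 and 49.7 CPM in circTau6 replicates 1 to 5. Of the circTau6 libraries 4 of 5 lay above every control, and replicate 4 lay just under control replicate 1. The log2 fold change was 0.12 ± 0.05 (SE) with an unadjusted edgeR p of 0.0204 and an adjusted p of 0.981. Its value moved little when single libraries were left out, from 0.11 to 0.15, and the authors' deposited table gives 0.14 with a p of 0.027 and an FDR of 0.987. Without circTau6 replicate 3 it was 0.13. Among its partners Atg5 had −0.06 ± 0.07 (SE), Atg12 had −0.0017 ± 0.048 (SE) and Atg7, the activating enzyme, had 0.003 ± 0.086 (SE). Whether Atg16l1 differs from its partners was not tested.

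The 5 ATG8 genes, whose products coat the autophagosome, were abundant and close to equal between groups. Gabarapl1 was the highest at 616 TPM ± 31.5 (SD, n = 5) in control libraries, followed by Gabarap at 190 TPM ± 8.75 (SD, n = 5), Gabarapl2 at 161 TPM ± 3.98 (SD, n = 5), Map1lc3b at 156 TPM ± 7.17 (SD, n = 5) and Map1lc3a at 130 TPM ± 7.28 (SD, n = 5). Gabarapl2 and Map1lc3b, neighbours in this order, differed by less than the SD of Map1lc3b but by more than that of Gabarapl2. Gabarapl1 had 383, 403, 382, 370 and 377 CPM in control and 377, 396, 408, 390 and 404 CPM in circTau6 libraries. The groups overlapped, and the difference of 0.044 ± 0.039 (SE) was the largest of the 5. Their log2 fold changes ran from −0.03 for Map1lc3b to 0.04. These are close paralogs, and how reads shared between them were counted is not known from the labels.

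Cargo receptors also stayed near their control level. Sqstm1, which encodes p62, had 358, 355, 363, 337 and 333 CPM in control and 347, 340, 375, 353 and 342 CPM after circTau6. The log2 fold change was 0.0092 ± 0.042 (SE), and its 95% interval ran from −0.08 to 0.10. Nbr1, a receptor of related build, had 182, 191, 196, 194 and 196 CPM in control and 185, 179, 195, 193 and 182 CPM in circTau6 libraries, at −0.04 ± 0.04 (SE). For both genes the groups overlapped. Optn, a receptor for damaged mitochondria and bacteria, was far less abundant at 15.4 TPM, with 0.08 ± 0.08 (SE).

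**Figure D2:**
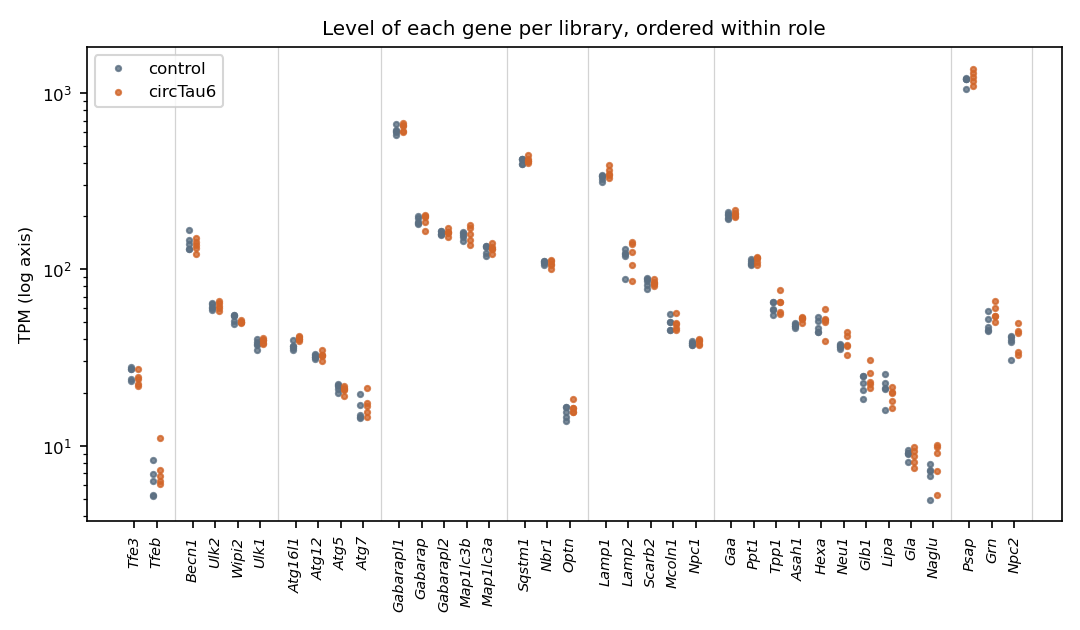
TPM of each gene in each of the 10 libraries on a log axis, grouped by role and ordered by control level (blue-grey, 5 control; orange, 5 circTau6). Psap is highest at a control mean of 1181 TPM, and Tfeb and Naglu are lowest at 6.37 and 6.77 TPM. In the TPM shown, the Asah1 groups do not overlap (46.5 to 49.4 TPM in control, 49.8 to 54.0 TPM in circTau6). When measured in CPM, the groups overlap for every gene.

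Of the 5 lysosomal membrane proteins, Lamp1 had the lowest p. LAMP1 is one of the heavily glycosylated proteins that line the lysosomal membrane, and the gene had 332 TPM ± 11.4 (SD, n = 5) in control libraries. Lamp1 had 305, 308, 309, 287 and 294 CPM in control and 312, 297, 353, 327 and 305 CPM in circTau6 libraries. In 3 of 5 circTau6 libraries it was above every control, highest in replicate 3. The log2 fold change of 0.08 ± 0.05 (SE), with an unadjusted edgeR p of 0.104, became 0.04 without that library. Npc1, the membrane component of the cholesterol exporter, had 0.017 ± 0.042 (SE), the calcium channel gene Mcoln1 −0.018 ± 0.064 (SE) and Scarb2, the carrier of glucocerebrosidase, −0.020 ± 0.045 (SE).

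Lamp2 and Npc2 varied widely within both groups, with coefficients of variation of 13.4% and 12.3% in control and 17.4% and 17.9% in circTau6 libraries. LAMP2 is the second main membrane glycoprotein and a receptor of chaperone-mediated autophagy, and NPC2 hands cholesterol to NPC1 inside the lysosome. Both were picked out after their values were seen. Lamp2 had 126, 91.3, 131, 127 and 124 CPM in control and 127, 109, 142, 141 and 92.4 CPM in circTau6 libraries. Npc2 had 55.1, 40.7, 56.7, 53.3 and 51.3 CPM in control and 57.6, 45.2, 66.1, 58.8 and 43.1 CPM in circTau6 libraries. In both genes the lowest values fell in control replicate 2 and circTau6 replicate 5, the libraries poor in choroid plexus RNA, followed by circTau6 replicate 2, at 1964 CPM the next lowest in those markers. The differences between groups were 0.03 ± 0.14 (SE) for Lamp2 and 0.08 ± 0.13 (SE) for Npc2. Without control replicate 2 they were −0.05 and 0.0022, and without circTau6 replicate 3 −0.03 and −0.0059.

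Because the choroid-poor libraries form a cluster of their own, the relation was computed over the other 8 libraries, between log2 CPM of each of the 36 members and of the summed choroid plexus markers. This was done after the pattern was seen. Pearson's r was positive in 29 of 36 members, and 8 had an unadjusted permutation p under 0.05. The relation was not computed for genes outside the list, so it cannot be called particular to any member. For Npc2 Pearson's r was 0.966 (exact two-sided permutation p 0.000198, 0.00402 after Benjamini-Hochberg adjustment over 36 relations) and Spearman's rho 0.929 (p 0.00223, adjusted 0.0402). For Lamp2 r was 0.954 (exact permutation p 0.000223, adjusted 0.00402) and rho 0.952 (p 0.00114, adjusted 0.0402). Leaving out circTau6 replicates 2 and 3, the libraries farthest from the median of the markers, gave r of 0.899 for Npc2 and 0.773 for Lamp2 over 6 libraries. Another member, Becn1, passed by Pearson's r (0.876, exact permutation p 0.000719, adjusted 0.00863) and not by Spearman's rho (0.905, adjusted p 0.0548). In the choroid-poor libraries Becn1 had 90.7 CPM in control replicate 2, among the lower values, and 96.7 CPM in circTau6 replicate 5, among the higher. Each group held 4 of the 8 libraries, too few for a value within it.

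**Figure D3:**
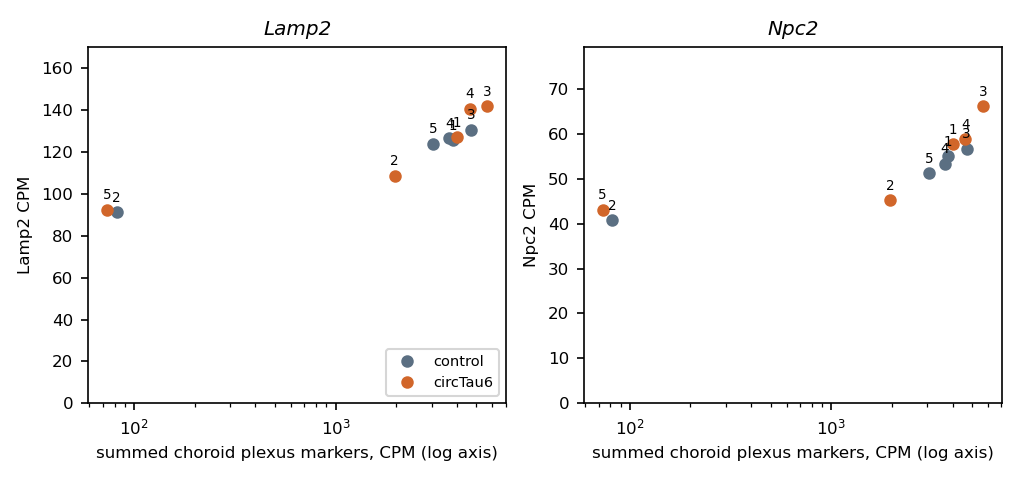
Lamp2 and Npc2 CPM in each library against the summed CPM of 10 choroid plexus markers on a log axis (points, with the replicate number; blue-grey control, orange circTau6). Control replicate 2 and circTau6 replicate 5 sit far left at 81.8 and 73.4 CPM with the lowest Lamp2 and Npc2, and the other 8 libraries climb from circTau6 replicate 2 to circTau6 replicate 3.

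The 10 hydrolases, lysosomal enzymes that act on sugar chains, lipids or, for Tpp1 and Ppt1, proteins, had a median log2 fold change of 0.049, with 8 of 10 positive and 0 called. Gaa, the acid glucosidase that degrades glycogen, was the most abundant at 203 TPM. It had 283, 268, 269, 287 and 300.3 CPM in control and 286, 281, 306, 291 and 276 CPM in circTau6 libraries, so the groups overlapped almost fully, at 0.03 ± 0.04 (SE). Asah1, acid ceramidase, had 53.3, 53.3, 56.1, 53.2 and 52.1 CPM in control and 60.3, 55.6, 57.2, 54.9 and 57.6 CPM in circTau6 libraries. By CPM it was above every control in 3 of 5 circTau6 libraries. In TPM all 5 were above, narrowly, with 49.8 to 54.0 TPM against 46.5 to 49.4 TPM in control. The share of all genes with that pattern in TPM was not computed. The log2 fold change of Asah1 was 0.09 ± 0.05 (SE) with an unadjusted edgeR p of 0.0675.

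The widest differences among the hydrolases belonged to genes of low level or high spread. Naglu, which removes sugar residues from heparan sulfate, had 5.07 to 8.21 CPM in control and 5.37 to 10.3 CPM in circTau6 libraries, at 0.27 ± 0.17 (SE). Lipa, the acid lipase for cholesterol esters, was the most negative of the 36 at −0.17 ± 0.11 (SE), with 19.0 to 31.0 CPM in control and 19.6 to 25.4 CPM in circTau6 libraries. In both groups Lipa was lowest or next to lowest in the library poor in choroid plexus RNA. With both choroid-poor libraries left out Naglu was at 0.42 (unadjusted edgeR p 0.0204) and Lipa at −0.23 (unadjusted edgeR p 0.0305), both with an adjusted p of at least 0.900. Single libraries moved them the other way, Naglu to 0.18 without control replicate 5 and Lipa to −0.09 without control replicate 4, while without control replicate 2 Lipa was at −0.26. Glb1, the lysosomal beta-galactosidase, had 0.12 ± 0.11 (SE), 0.03 without circTau6 replicate 3 and 0.07 without control replicate 3, and its exons overlap those of Tmppe on the same strand. Hexa, Tpp1, Neu1, Ppt1 and Gla had values from −0.07 to 0.06.

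The other lumenal proteins were led by Psap, the precursor of the saposins that present lipids to hydrolases. At 1181 TPM ± 65.9 (SD, n = 5) in control libraries Psap was the most abundant of the 36 and held 25.2% of their summed TPM. Psap had 1295, 1137, 1307, 1300 and 1316 CPM in control and 1330, 1269, 1474, 1378 and 1171 CPM in circTau6 libraries. The choroid-poor library was the lowest of each group, and circTau6 replicate 3 was the highest of all. Its difference of 0.06 ± 0.06 (SE) became 0.02 without circTau6 replicate 3, and 0.02 without control replicate 2.

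Grn encodes progranulin, a secreted and lysosomal protein made by microglia and neurons whose loss causes a form of frontotemporal dementia. Grn lies on chromosome 11 from 102430315 to 102437048 (GENCODE M21, GRCm38). It had 54.4, 42.0, 42.9, 43.5 and 47.3 CPM in control and 56.0, 50.6, 62.1, 50.2 and 46.9 CPM in circTau6 libraries. Only replicates 1 and 3 of the circTau6 group lay above every control, since control replicate 1 stood high. The log2 fold change was 0.21 ± 0.08 (SE) with an unadjusted edgeR p of 0.026 and an adjusted p of 0.981. It was 0.15 without circTau6 replicate 3 (unadjusted edgeR p 0.0736) and 0.28 without control replicate 1 (unadjusted edgeR p 0.00322, adjusted 0.661). The authors' deposited table gives 0.21 with a p of 0.00904 and an FDR of 0.987. Grn exons overlap those of Fam171a2 on the opposite strand, and whether the counting used strand is not known from the labels.

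**Figure D4:**
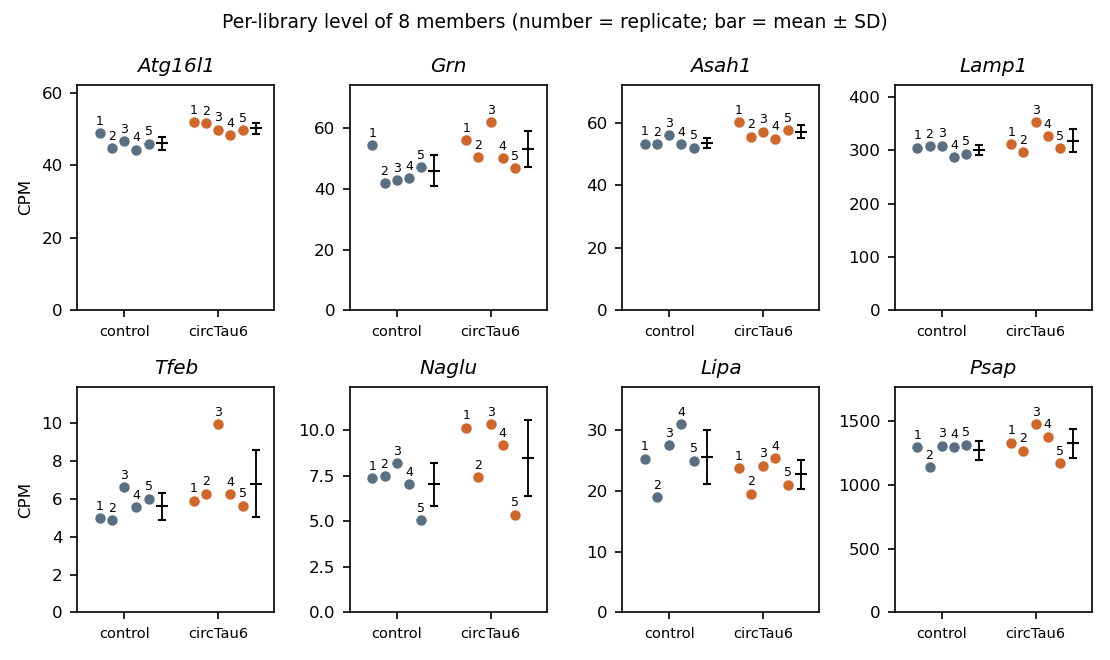
CPM of 8 members in each library (points, numbered by replicate) with the group mean ± SD beside them (bars, n = 5). Atg16l1 shows 4 of 5 circTau6 libraries above every control; in Tfeb, Lamp1, Psap, Grn and Naglu circTau6 replicate 3 is the highest library.

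Library by library, 16 of 36 members had their highest value in circTau6 replicate 3, as did 18.3% of all genes tested. These 16 were Tfeb, Becn1, Map1lc3a, Gabarap, Gabarapl1, Sqstm1, Lamp1, Lamp2, Npc2, Psap, Grn, Hexa, Glb1, Gaa, Naglu and Tpp1. The member median deviation there was 0.09 on the log2 scale, and 0.012 over all genes. That library also had the lowest summed neuron markers, 7036 CPM against 7594 to 8493 CPM elsewhere, and the highest endothelial and border macrophage markers, at 314 and 28.9 CPM. The part of these in the members' values was not tested. Control replicate 2 held the lowest value of 9 members, beside 11.3% of all genes.

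Markers of microglia, phagocytes rich in lysosomes, were also measured. The 12 microglia markers summed to 399 to 430 CPM in control and 432 to 459 CPM in circTau6 libraries, ranges that did not overlap. Of the 12, 11 had positive log2 fold changes, beside 49.9% of all genes tested. With higher values, 6 had an unadjusted edgeR p under 0.05, beside 2.58% of all genes. Of these markers 0 were called, and none was at 0 counts in the libraries. In other lists, positive values were found for 7 of 8 endothelial, 4 of 10 astrocyte, 1 of 10 neuron and 1 of 9 oligodendrocyte markers. Of the 12 genes of disease-associated microglia 10 were tested, 8 were positive and 0 were called, and Tyrobp, an adaptor of Trem2, had an unadjusted edgeR p of 0.00684 at 0.41 ± 0.13 (SE). In Tyrobp, Trem2, Cd68, Itgax and Axl 4 of 5 circTau6 libraries lay above every control. In the rest of that list it was 3 of 5 for Apoe and Cd9, 2 for Spp1, and 0 for Lpl and Gpnmb. The share of all genes with such patterns was not computed, so these counts have no background. Itgax had only 0 to 29 counts in a library. Lpl, at −0.21 ± 0.15 (SE), and Gpnmb, at −0.0099 ± 0.20 (SE), were the negative genes of that list. Their summed level, 1280 to 1395 CPM in control and 1234 to 1574 CPM in circTau6 libraries, is mostly Apoe, at 1161 CPM in control. The part of microglial RNA in the values of Grn, Asah1 and the other members was not tested.

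A further 104 genes of the same pathways, outside the 36, gave a similar picture, with 103 tested and 0 called. At an unadjusted edgeR p under 0.05, 4 were higher and 1 lower, beside 2.58% and 1.85% of all genes tested. This is near the background. Other hydrolases and their sorting receptors had 20 of 24 positive log2 fold changes and a median of 0.06. Those with the lowest p were Lgmn, an asparagine-specific protease, at 0.19 ± 0.06 (SE), and Man2b1, an acid mannosidase, at 0.27 ± 0.09 (SE). In each of these 4 of 5 circTau6 libraries lay above every control, and so it was for Laptm5, a lysosomal membrane protein of blood-lineage cells, at 0.17 ± 0.06 (SE). These genes were named for their low p, so the pattern adds nothing to it, and its share over all genes was not computed. The autophagy genes outside the list had 12 of 28 positive and a median of −0.01, and those of mTORC1 and nutrient sensing, a list of both activators and inhibitors, 10 of 18 and 0.013.

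The proton pump that acidifies lysosomes had 8 of 17 subunit genes positive, with a median of −0.01. The exception in size was Atp6ap2, the accessory subunit also known as the prorenin receptor. Atp6ap2 had 237, 228, 228, 240 and 243 CPM in control and 225, 203, 192, 221 and 208 CPM in circTau6 libraries. Every circTau6 library lay below every control, as in 0.368% of all genes tested. Its log2 fold change was −0.17 ± 0.05 (SE), with an unadjusted edgeR p of 0.00298 and an adjusted p of 0.957.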

How the data were processed

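RNA of 10 hippocampal libraries, 5 per group, was analysed from 1 table. Libraries were depleted of ribosomal RNA, kept strand and were read in 150 bp pairs, per the labels' protocols. StringTie 1.3.1 and RSEM appear in the submitters' processing notes, and the aligner and genome build do not appear there. The authors deposited whole-number counts and TPM per gene and library, per the file headers. Their deposited log2 fold change, p-value and FDR come from a test that is not given. Groups come from the labels. No label says outright that each library is a separate mouse, so p-values measure only the spread between these samples, which may be technical.

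Counts were tested with edgeR 4.0.16 in R 4.3.3 (filterByExpr, TMM, robust quasi-likelihood F test), with Benjamini-Hochberg adjustment over all 14396 genes and a threshold of 0.05. CPM are counts scaled to TMM-adjusted totals, and standard errors are the log2 fold change over the root of F. Total counts were 14762952 to 17647138. No 2 libraries agreed within sampling noise (chi-square per degree of freedom at least 4.06 in each pair). Tested on counts simulated for this comparison, the fit recovered 38% of genes changed by 1.3 times, 68% of those changed by 1.5 times, 80% of those by 2 times and 96% of those by 4 times, and made 11 false calls. The simulation changed 50 genes by each size, which makes the adjusted threshold easier to pass than in data where 0 genes passed. Its counts were drawn independently, without library-wide shifts such as those of GC content or choroid plexus RNA. These shares may therefore overstate recovery here.

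The members and lists were chosen with earlier results of these data known. Values are given in each library for members with an unadjusted p under 0.05 or with groups that do not overlap, for the lowest p and the highest mean TPM in each role, and, after their values were seen, for Lamp2 and Npc2. Of the other pathway lists, genes of lowest p are named, and 1 is not reported here. GENCODE M21 IDs matched 36 of 36 members. Alternatives were DESeq2 1.42.0, limma 3.58.1 (voom with quality weights, and log2(TPM + 0.1)), RLE and upper quartile scaling, no filter or a stricter one, a replicate block, a surrogate variable (sva 3.50.0), and leaving out libraries.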

Additional observations from a re-analysis of the deposited data

Results flagged for a closer look

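Of 88 groups of 5 values examined (36 genes and 8 summed roles, each in both treatment groups), 7 had 1 library far from its fellows; chance picks out about 5 in 100. Tfeb was at 9.93 CPM in circTau6 replicate 3, where the other circTau6 libraries had 5.65 to 6.26 CPM. The summed TPM of the ATG8 genes was 1361 in the same library, and 1250 to 1282 in the others of its group. Control replicate 2, poor in choroid plexus RNA, was low in Lamp2 at 91.3 CPM (others 124 to 131 CPM), in Psap at 1137 CPM (others 1295 to 1316 CPM), and in the summed TPM of Npc2, Psap and Grn at 1140 (others 1285 to 1320). Atg7 was at 23.4 CPM in control replicate 1, above 19.1 to 19.9 CPM in the other controls. Gabarap was at 88.4 CPM in circTau6 replicate 5, below 102 to 106 CPM in its group.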

How the results depend on the processing

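Under 20 alternatives 0 members and 0 other pathway genes were called, and the lowest adjusted p of a member was 0.661. Over all genes, DESeq2 called 14 higher, the fit with a replicate block 4, limma voom 2, the fit with no low count filter 2, the fit with 1 surrogate variable 2, and that without both choroid-poor libraries 3; leaving out single libraries gave 0 to 4, with 4 without circTau6 replicate 5 and 1 without control replicate 1 or 3. The median log2 fold change of the members ran from 0.0038 without circTau6 replicate 3 to 0.036 under upper quartile scaling. Up to 8 members changed sign under an alternative, none with a value beyond 0.077 in size or an unadjusted p under 0.05. Atg16l1 kept an unadjusted p under 0.05 in 18 of 20 alternatives and Grn in 15; both lost it without control replicate 2. Same-numbered libraries correlated at −0.075 to 0.2, and no library correlated best with its own number in both directions, so the numbers do not pair them. With the replicate block 0 members were called, and Atg16l1 and Grn stayed at 0.125 and 0.209. Depth limits Tfeb and Naglu most, with as few as 77 and 76 counts in a library.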
